A study of Mus musculus with 19 samples.

Results

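The lysosome degrades material that a cell takes up or discards, and in dendritic cells it also cuts antigens into peptides for presentation to T cells. A proton pump, the V-ATPase, acidifies it, soluble hydrolases do the digestion, and heavily glycosylated membrane proteins line and serve it. Most of these proteins are made in the endoplasmic reticulum (ER), and the transcription factors TFEB, TFE3 and MITF raise transcription of many of their genes. IRE1, encoded by Ern1, is a sensor of ER stress that splices the mRNA of Xbp1 with its RNase, after which the active transcription factor XBP1 can be made. In cells that lack XBP1 this RNase is known to become overactive and to cut other mRNAs.

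The genes described are 45 of the 24421 symbols in the count tables, chosen by name with earlier results of these data known. Because of that choice, counts of calls among the 45 describe the list and do not test it. They are 9 membrane proteins, 18 hydrolases, 15 V-ATPase subunits and accessory proteins, and the 3 regulators Tfeb, Tfe3 and Mitf. All 45 were present and passed the filter on low counts in each fit. RNA was sequenced in bulk from conventional dendritic cells sorted from the spleens of C57BL6 mice: cDC1, known for presenting antigen to CD8 T cells, and cDC2, known for presenting mainly to CD4 T cells. Each cell type came as Xbp1 KO (mice lacking Xbp1), as Xbp1-Ire1 KO (mice lacking Xbp1 and Ire1) and as WT, with 3 libraries per group except 4 in cDC2 WT. The names of the libraries divide the WT groups: replicates 1 and 2 of either cell type carry both floxed alleles (fl-fl) in their names. The remaining WT library of cDC1 (replicate 3) and pair of cDC2 (replicates 3 and 4) are named with Xbp1, Ire1 and WT, without fl-fl. Below, "named WT alone" refers to these libraries. The labels name no Cre driver, deleted exon, age or sex.

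Libraries of cDC1 held 11 to 16.2 and those of cDC2 10.6 to 14.6, in units of 1e6 counts. Markers followed the sort: the receptor Xcr1 ranged over 813 to 1281 CPM (counts per 1e6) among cDC1 and 5.66 to 19.5 CPM among cDC2, and the receptor Sirpa over 5.31 to 68.0 CPM among cDC1 and 1299.7 to 1701 CPM among cDC2. Counts of Xbp1 and Ern1 cover the whole gene, so with the deleted exons unnamed they do not check the labels: in cDC1, Xbp1 had 95.2, 89.7 and 113 CPM in Xbp1 KO, 353, 337 and 301 CPM in Xbp1-Ire1 KO and 233, 145 and 143 CPM in WT libraries. Ern1 had 31.8, 33.1 and 26.7 CPM in cDC1 Xbp1 KO, 71.3, 60.6 and 50.5 CPM in Xbp1-Ire1 KO and 22.4, 28.96 and 23.3 CPM in WT libraries. Both targeted genes were thus higher in the cDC1 libraries labelled Xbp1-Ire1 KO than in WT, by 0.93 for Xbp1 (adjusted p = 0.00628) and by 1.29 for Ern1 (adjusted p = 0.000467) on the log2 scale, and groups are called by their labels throughout. Some cDC1 libraries stood apart in markers of other cells. The summed level of 10 red pulp macrophage markers, none of them at 0, was 180 to 951 CPM in cDC1 Xbp1 KO. It was 204 to 778 CPM in Xbp1-Ire1 KO and 245 to 383 CPM in WT cDC1. The highest cDC1 values were in replicate 2 of each knockout. In cDC2 it was 495 to 2104 CPM in Xbp1 KO, 707 to 1288 CPM in Xbp1-Ire1 KO and 509 to 951 CPM in WT. Libraries were left out for these markers in cDC1 only. Pancreatic acinar transcripts were high in 1 library, Xbp1 KO replicate 3 of cDC1, where they summed to 2090 CPM, with 9.99 CPM as the next highest value. Neutrophil markers summed to 0 to 11.9 CPM in Xbp1 KO, 20.2 to 76.4 CPM in Xbp1-Ire1 KO and 0.838 to 7.43 CPM in WT cDC1, and 23 immediate early genes to 23974 to 28843 CPM in Xbp1 KO, 10192 to 15929 CPM in Xbp1-Ire1 KO and 13488 to 17419 CPM in WT cDC1. Calls lost without replicate 2 of both knockouts, or without Xbp1 KO replicate 3, are given with their values at each gene, and the part of these markers in the other results was not tested.

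In cDC1, 14 of the 45 lysosomal genes fell in Xbp1 KO against WT (edgeR quasi-likelihood test, Benjamini-Hochberg adjusted over 11353 genes, called at an adjusted p under 0.05). Of all tested genes 11.2% were called, 6.91% of them lower and 4.28% higher. The 14 were 9 of 18 hydrolases, 4 of 9 membrane proteins and 1 of 15 V-ATPase genes. No member rose by edgeR, by DESeq2 or by limma on the deposited log2 values. None rose at an unadjusted p under 0.05 either, which 17 members met, all lower. That threshold was met by 28.3% of all tested genes, in either direction. The median log2 fold change was −0.47 over the hydrolases, −0.27 over the membrane proteins, −0.18 over the V-ATPase genes and −0.18 over the regulators, beside −0.02 over all tested genes. Xbp1 KO and WT libraries did not overlap for 22 members, 20 of them lower, while 30.1% of all tested genes had groups that did not overlap and 16.4% had them lower. The labels do not say that replicates were separate mice, so these p-values measure the spread between the samples, which may be technical. In bulk RNA, fewer cells of one type and less RNA per cell cannot be told apart.

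In the cDC1 libraries labelled Xbp1-Ire1 KO, 6 of the 45 genes fell against the same WT libraries, while 7.75% of all tested genes were called and 4.71% were lower. These were 3 hydrolases, 2 membrane proteins and 1 V-ATPase gene. At an unadjusted p under 0.05 there were 14 lower members and 1 higher, beside 22.5% of all tested genes in either direction. The median over the 45 genes was −0.23, against −0.26 for Xbp1 KO, both set against the shared WT libraries. Between the knockouts, 7 members were higher and 1 was lower in Xbp1-Ire1 KO than in Xbp1 KO, of which 5 of the higher were hydrolases and 2 were membrane proteins. All tested genes gave 12.7% called in that comparison, 7.13% higher and 5.52% lower.

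**Figure D1:**
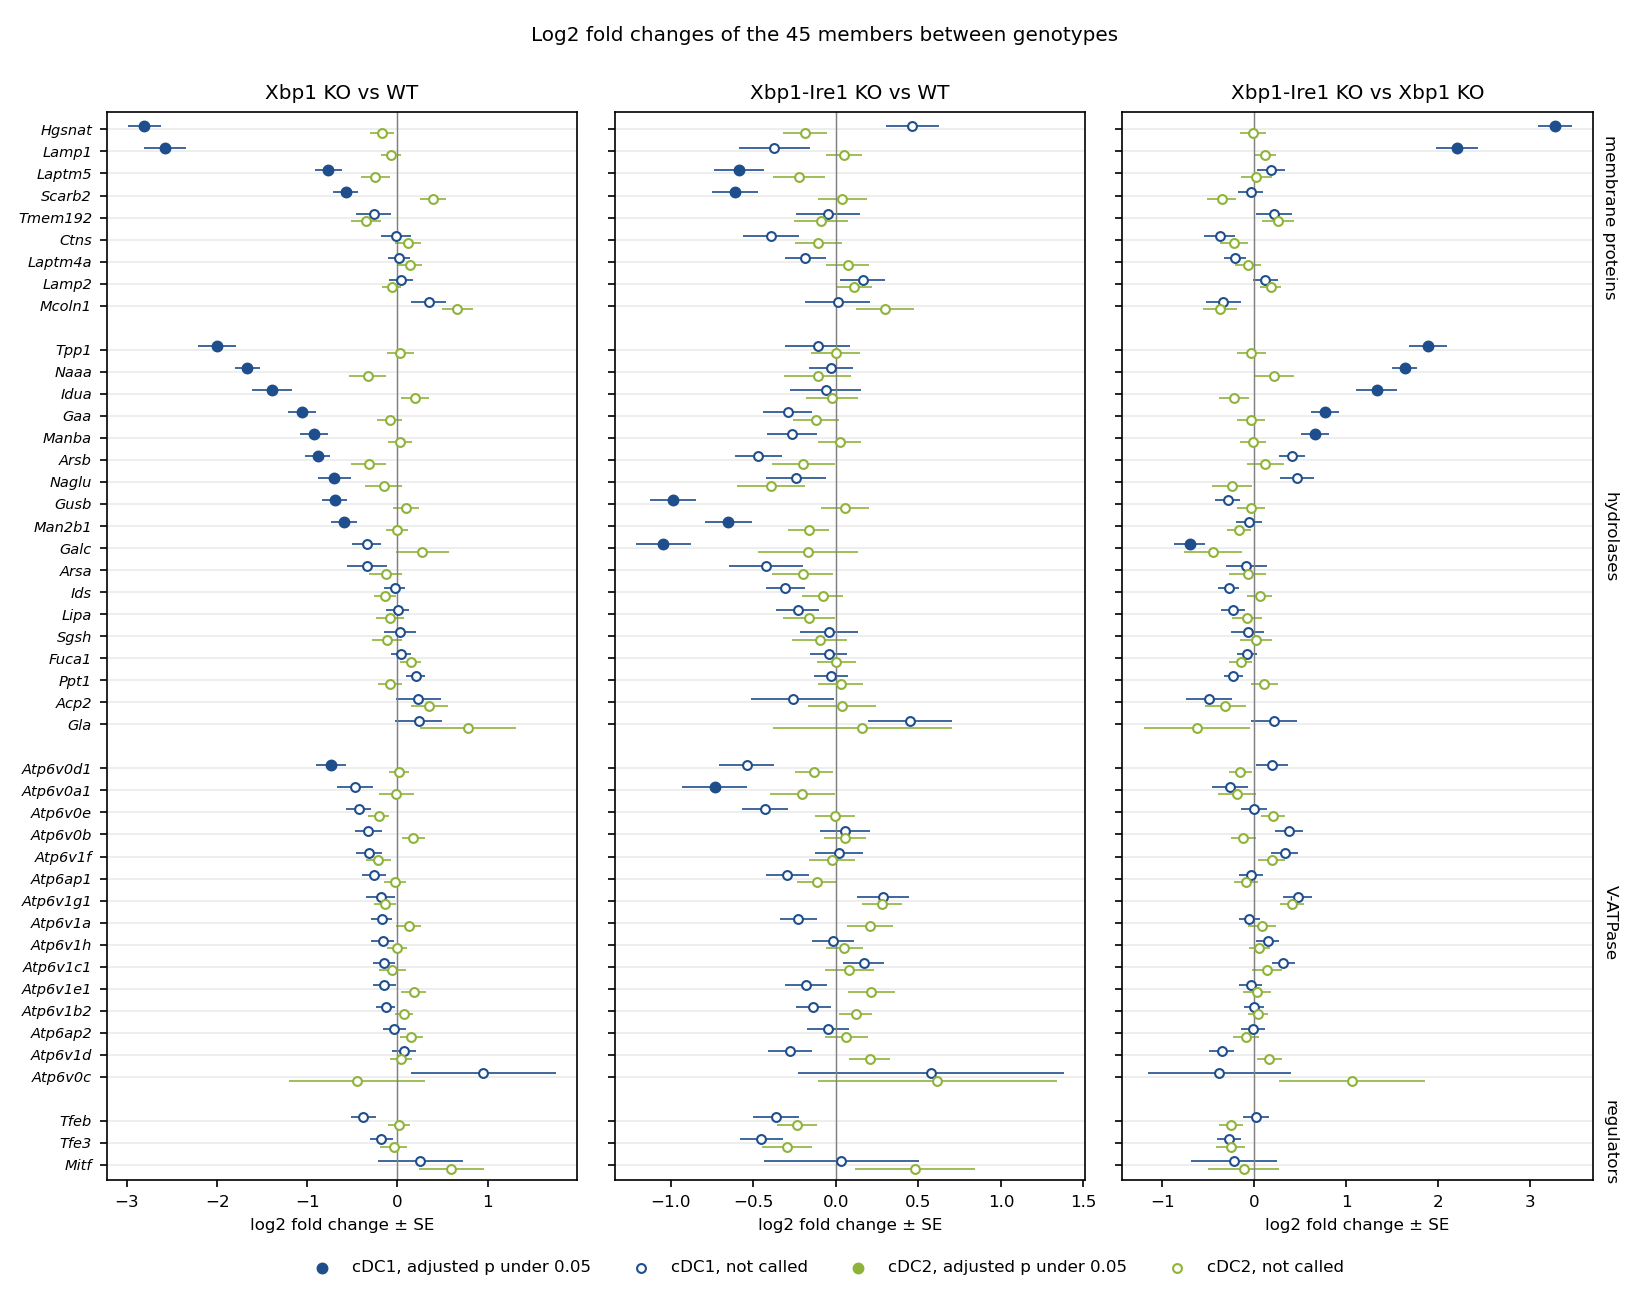
Log2 fold changes of the 45 genes in cDC1 and cDC2 for Xbp1 KO against WT, Xbp1-Ire1 KO against WT and Xbp1-Ire1 KO against Xbp1 KO, from the edgeR fits, by class. Bars are SE, and filled points were called at an adjusted p under 0.05. Hgsnat, Lamp1, Tpp1 and Naaa lie lowest in cDC1 Xbp1 KO against WT, at −2.81 to −1.67, and no cDC2 point is filled.

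Among the membrane proteins the lowest value belonged to Hgsnat (GRCm38 chr8:25944453-25976753, minus strand), which moves acetyl groups across the lysosomal membrane onto heparan sulfate. It had 4.48, 4.64 and 4.29 CPM in cDC1 Xbp1 KO, 45.8, 44.6 and 39.1 CPM in cDC1 Xbp1-Ire1 KO and 35.4, 32.1 and 26.5 CPM in cDC1 WT libraries. Every Xbp1 KO library lay far below every other cDC1 library, and every Xbp1-Ire1 KO library lay above every WT library. The log2 fold change was −2.81 ± 0.18 (SE, adjusted p = 1.1e-06) for Xbp1 KO against WT and 3.27 ± 0.18 (adjusted p = 1.86e-07) for Xbp1-Ire1 KO against Xbp1 KO. For Xbp1-Ire1 KO against WT it was 0.46 ± 0.16 with an adjusted p of 0.0964.

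Lamp1 (chr8:13159161-13175338, plus strand) encodes one of the most abundant glycoproteins of the lysosomal membrane. Its values were 58.9, 58.9 and 32.7 CPM in cDC1 Xbp1 KO, 247, 222 and 224 CPM in Xbp1-Ire1 KO and 356, 215 and 325 CPM in WT libraries. The Xbp1 KO libraries stood below both other groups, which overlapped each other. Lamp1 fell by 2.58 ± 0.23 on the log2 scale in Xbp1 KO against WT (adjusted p = 9.95e-06) and was 2.20 ± 0.23 higher in Xbp1-Ire1 KO than in Xbp1 KO (adjusted p = 2.93e-05). Exons of Grtp1 on the opposite strand cover 9.31% of its exon bases, and the strand setting of the counting is not given in the sources used here.

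Lamp2, the close relative of Lamp1, gave 193, 196.5 and 204 CPM in cDC1 Xbp1 KO, 244, 180 and 222 CPM in Xbp1-Ire1 KO and 201, 169 and 207 CPM in WT libraries, and all groups overlapped. Its log2 fold change for Xbp1 KO against WT was 0.04 ± 0.13 (adjusted p = 0.877).

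Scarb2, the receptor that carries glucocerebrosidase to the lysosome, and Laptm5, a lysosomal membrane protein of blood cells, were lower in both knockouts. Scarb2 had 72.1, 65.6 and 64.8 CPM in cDC1 Xbp1 KO, 57.9, 65.1 and 74.0 CPM in Xbp1-Ire1 KO and 111, 102 and 87.5 CPM in WT libraries. Laptm5 had 1546, 1585 and 1588 CPM in Xbp1 KO, 1645, 1953 and 1752 CPM in Xbp1-Ire1 KO and 3034, 3007 and 1990 CPM in WT libraries. For both genes all knockout libraries lay under all WT libraries, and the lowest WT library was replicate 3, the one named WT alone. Scarb2 fell by 0.57 ± 0.14 in Xbp1 KO (adjusted p = 0.0197) and in Xbp1-Ire1 KO by 0.61 ± 0.14 (adjusted p = 0.0158) on the log2 scale. Laptm5 fell by 0.77 ± 0.15 (adjusted p = 0.00598) and by 0.59 ± 0.15 (adjusted p = 0.03). Against WT replicate 3 alone, Scarb2 gave −0.36 in Xbp1 KO (adjusted p = 0.357) and −0.41 in Xbp1-Ire1 KO (adjusted p = 0.236), and Laptm5 gave −0.33 (adjusted p = 0.255) and −0.15 (adjusted p = 0.569), so neither was called. With 1 library left out at a time, Scarb2 in Xbp1 KO was called without WT replicate 3 and not without any 1 of the other 5 libraries (−0.61 to −0.48, adjusted p = 0.0575 to 0.106). In Xbp1-Ire1 KO it was not called without WT replicate 1 (−0.54, adjusted p = 0.0767) or Xbp1-Ire1 KO replicate 1 (−0.53, adjusted p = 0.0897), and Laptm5 not without WT replicates 1 or 2 or Xbp1-Ire1 KO replicates 1 or 3 (−0.58 to −0.50, adjusted p = 0.101 to 0.138). Without replicate 2 of both knockouts, Scarb2 gave −0.54 in Xbp1 KO (adjusted p = 0.113) and −0.60 in Xbp1-Ire1 KO (adjusted p = 0.0746), and Laptm5 gave −0.65 in Xbp1-Ire1 KO (adjusted p = 0.0709). Without Xbp1 KO replicate 3, Scarb2 gave −0.53 in Xbp1 KO (adjusted p = 0.0648).

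The other membrane proteins were not called in these 3 comparisons. Mcoln1, the lysosomal calcium release channel, had a log2 fold change of 0.34 ± 0.19 for Xbp1 KO against WT (adjusted p = 0.269). Ctns, the cystine exporter, gave −0.02 (adjusted p = 0.954), Laptm4a gave 0.02 (adjusted p = 0.931) and Tmem192 gave −0.27 (adjusted p = 0.411).

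Of the 9 hydrolases that fell in cDC1 Xbp1 KO against WT, 5 were higher in Xbp1-Ire1 KO than in Xbp1 KO. Tpp1 (chr7:105744811-105752235, minus strand) is a protease that removes tripeptides from protein ends. It had 7.26, 13.3 and 8.997 CPM in Xbp1 KO, 34.6, 41.6 and 33.3 CPM in Xbp1-Ire1 KO and 41.4, 37.2 and 39.5 CPM in WT libraries. The highest Xbp1 KO library was well under the lowest of the other libraries. Tpp1 fell by 2.00 ± 0.21 on the log2 scale in Xbp1 KO against WT (adjusted p = 4.44e-05) and was 1.89 ± 0.21 higher in Xbp1-Ire1 KO than in Xbp1 KO (adjusted p = 5.93e-05).

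Naaa (chr5:92257659-92278170, minus strand) hydrolyses fatty acid ethanolamides. It had 824, 785 and 690.1 CPM in Xbp1 KO, 2405, 2421 and 2325 CPM in Xbp1-Ire1 KO and 2855, 2459 and 1989 CPM in WT libraries. Again the Xbp1 KO libraries lay apart, and the Xbp1-Ire1 KO libraries lay within the range of WT. The log2 fold change was −1.67 ± 0.14 for Xbp1 KO against WT (adjusted p = 4.74e-06) and 1.64 ± 0.14 for Xbp1-Ire1 KO against Xbp1 KO (adjusted p = 4.51e-06).

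Idua (chr5:108660331-108684557, plus strand) removes iduronic acid from heparan and dermatan sulfate. It had 10.7, 13.1 and 7.76 CPM in cDC1 Xbp1 KO, 20.97, 29.2 and 29.2 CPM in Xbp1-Ire1 KO and 24.7, 27.1 and 31.3 CPM in WT libraries. The Xbp1 KO libraries were the 3 lowest. Idua fell by 1.39 ± 0.22 in Xbp1 KO against WT (adjusted p = 0.00149) and was 1.33 ± 0.22 higher in Xbp1-Ire1 KO than in Xbp1 KO (adjusted p = 0.00188), both on the log2 scale. Exons of Slc26a1 and Dgkq on the opposite strand cover 3.35% and 2.95% of its exon bases.

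Gaa (chr11:119267887-119285454, plus strand), which breaks down glycogen, had 46.8, 40.9 and 46.5 CPM in cDC1 Xbp1 KO, 71.9, 82.3 and 74.5 CPM in Xbp1-Ire1 KO and 110.1, 95.8 and 74.1 CPM in WT libraries. Manba (chr3:135485611-135571404, plus strand), a mannosidase of glycoprotein breakdown, had 22.2, 18.5 and 18.8 CPM in Xbp1 KO, 28.9, 33.4 and 31.6 CPM in Xbp1-Ire1 KO and 39.2, 34.3 and 39.4 CPM in WT libraries. For both genes Xbp1 KO was lowest without overlap, and for Manba the Xbp1-Ire1 KO libraries also lay under all WT libraries. Gaa fell by 1.06 ± 0.15 (adjusted p = 0.000648) and Manba by 0.92 ± 0.15 (adjusted p = 0.00195) on the log2 scale in Xbp1 KO against WT. Between the knockouts, the log2 fold change of Xbp1-Ire1 KO against Xbp1 KO was 0.77 ± 0.15 for Gaa (adjusted p = 0.0059) and 0.66 ± 0.15 for Manba (adjusted p = 0.0139). Without replicate 2 of both knockouts, those high in macrophage markers, it was 0.64 for Gaa (adjusted p = 0.0917) and 0.56 for Manba (adjusted p = 0.139), and neither was called. Manba was also not called without Xbp1-Ire1 KO replicate 3 (0.64, adjusted p = 0.0581) or without Xbp1 KO replicate 2 alone (0.59, adjusted p = 0.0755).

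Arsb, a sulfatase of dermatan sulfate, had 237, 221 and 213.5 CPM in cDC1 Xbp1 KO, 265, 339.6 and 291.5 CPM in Xbp1-Ire1 KO and 431, 469 and 339.8 CPM in WT libraries. The 3 groups formed 3 steps without overlap, though the highest Xbp1-Ire1 KO library nearly met the lowest WT library. Arsb fell by 0.88 ± 0.14 on the log2 scale in Xbp1 KO against WT (adjusted p = 0.00154), and against WT replicate 3 alone the value was −0.59 (adjusted p = 0.0821). It gave −0.47 in Xbp1-Ire1 KO against WT (adjusted p = 0.0594) and 0.42 in Xbp1-Ire1 KO against Xbp1 KO (adjusted p = 0.0705). On the opposite strand, Gm26527 and Gm47210, which are annotated but were not among the symbols of the count tables, cover 32.3% and 7.67% of the Arsb exon bases.

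**Figure D2:**
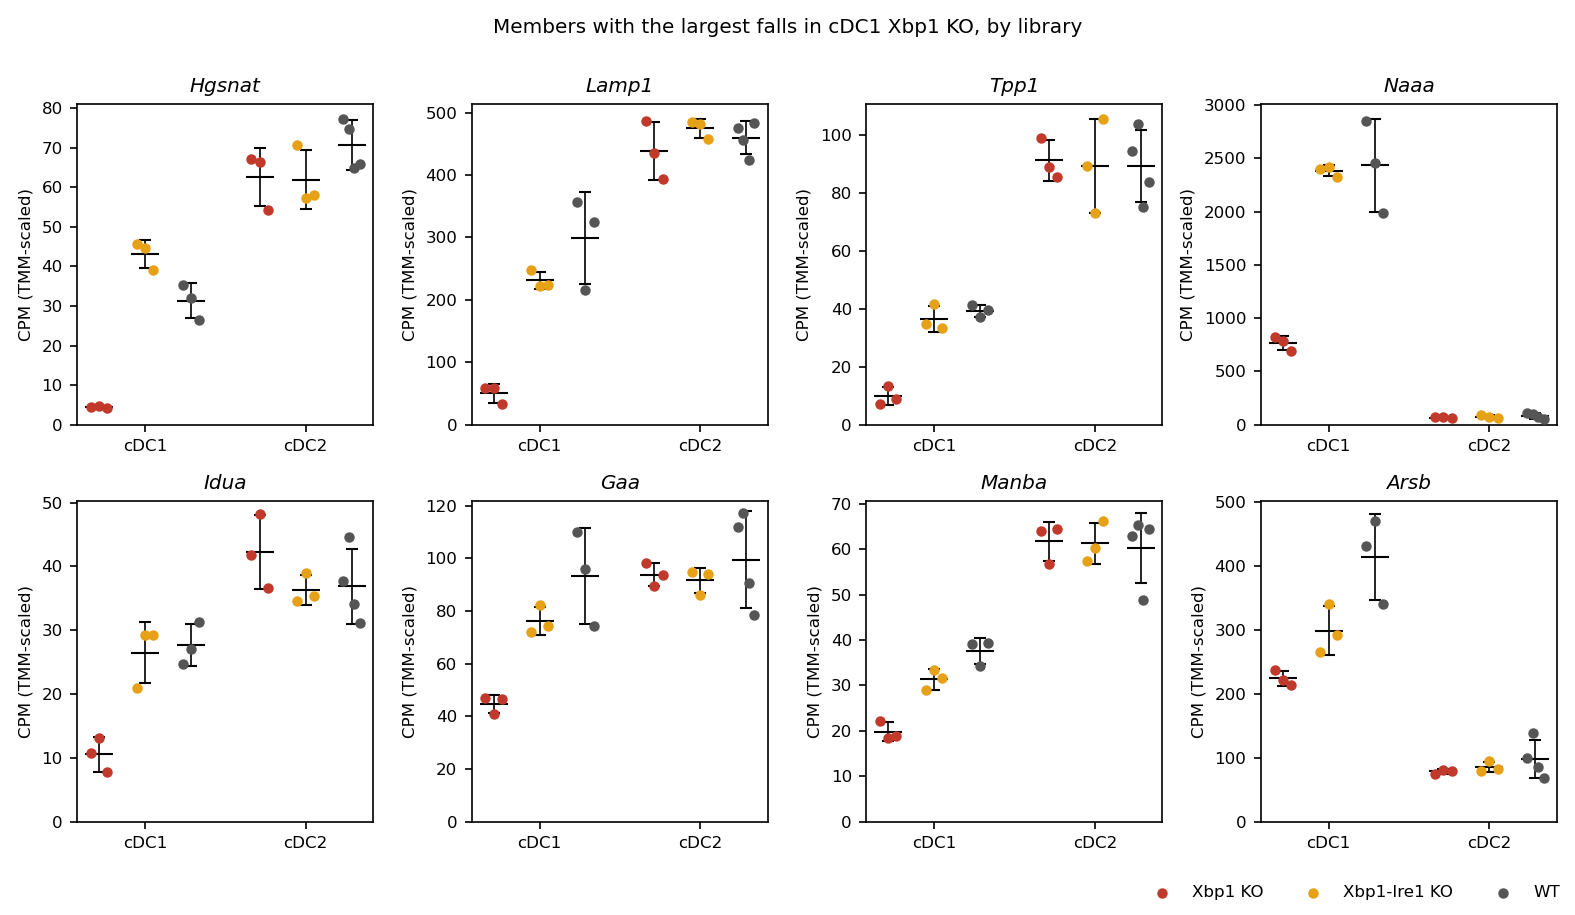
CPM of Hgsnat, Lamp1, Tpp1, Naaa, Idua, Gaa, Manba and Arsb in each cDC1 and cDC2 library by genotype, with the mean and SD of each group. In cDC1 the Xbp1 KO libraries are lowest for every gene shown, without overlap with the other genotypes, while in cDC2 Lamp1 stays at 394 to 486 CPM in all libraries.

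The hydrolases called lower in cDC1 Xbp1-Ire1 KO than in WT were Gusb, Galc and Man2b1. Of these, Gusb and Man2b1 also fell in Xbp1 KO, and Galc was not called there. Gusb, the beta-glucuronidase (chr5:129989011-130003049, minus strand), had 716, 653 and 659.9 CPM in cDC1 Xbp1 KO, 490.3, 627 and 543.5 CPM in Xbp1-Ire1 KO and 1200, 1193 and 894 CPM in WT libraries. All Xbp1-Ire1 KO libraries lay under all Xbp1 KO libraries, and these under all WT libraries. Gusb fell by 0.70 ± 0.14 in Xbp1 KO (adjusted p = 0.00669) and in Xbp1-Ire1 KO by 0.99 ± 0.14 (adjusted p = 0.000728) against WT on the log2 scale. Against WT replicate 3 alone it gave −0.39 in Xbp1 KO (adjusted p = 0.243) and −0.69 in Xbp1-Ire1 KO (adjusted p = 0.0235).

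Galc (chr12:98202294-98259459, minus strand), which breaks down galactosylceramide, had 27.1, 30.4 and 22.9 CPM in cDC1 Xbp1 KO, 16.99, 17.6 and 14.8 CPM in Xbp1-Ire1 KO and 33.3, 36.5 and 32.1 CPM in WT libraries. Here Xbp1-Ire1 KO was the lowest genotype, without overlap with the others. Galc fell by 1.04 ± 0.17 in Xbp1-Ire1 KO against WT (adjusted p = 0.00173) and by 0.70 ± 0.17 against Xbp1 KO (adjusted p = 0.0153) on the log2 scale. Without the libraries high in macrophage markers the difference between the knockouts was −0.66 (adjusted p = 0.101). It was not called without Xbp1 KO replicates 1 or 2 or Xbp1-Ire1 KO replicate 3 either (−0.71 to −0.62, adjusted p = 0.0544 to 0.0755).

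Man2b1, a mannosidase, and Naglu, an enzyme of heparan sulfate breakdown, lay closer to the threshold. Man2b1 had 999.5, 1043 and 961 CPM in cDC1 Xbp1 KO, 847.5, 1087 and 948 CPM in Xbp1-Ire1 KO and 1628, 1699 and 1199 CPM in WT libraries. Naglu had 49.7, 44.6 and 43.2 CPM in Xbp1 KO, 50.001, 71.9 and 67.2 CPM in Xbp1-Ire1 KO and 77.7, 89.98 and 55.9 CPM in WT libraries. Man2b1 was lower in all libraries of both knockouts than in any WT library, and Naglu in the Xbp1 KO libraries. Man2b1 fell by 0.59 ± 0.14 in Xbp1 KO (adjusted p = 0.0197) and in Xbp1-Ire1 KO by 0.65 ± 0.14 (adjusted p = 0.0138), and Naglu fell by 0.70 ± 0.18 in Xbp1 KO (adjusted p = 0.0291), on the log2 scale against WT. Against WT replicate 3 alone, Man2b1 gave −0.25 in Xbp1 KO (adjusted p = 0.463) and −0.31 in Xbp1-Ire1 KO (adjusted p = 0.288), and Naglu gave −0.27 in Xbp1 KO (adjusted p = 0.561). In Xbp1 KO neither was called without any 1 of the libraries other than WT replicate 3, with −0.61 to −0.49 for Man2b1 (adjusted p = 0.0634 to 0.0944) and −0.75 to −0.53 for Naglu (adjusted p = 0.075 to 0.132). Without Xbp1 KO replicate 3 the values were −0.55 for Man2b1 (adjusted p = 0.0634) and −0.65 for Naglu (adjusted p = 0.0841), and without replicate 2 of both knockouts they were −0.61 (adjusted p = 0.0714) and −0.67 (adjusted p = 0.126). In Xbp1-Ire1 KO, Man2b1 was not called without WT replicates 1 or 2 or Xbp1-Ire1 KO replicates 1 or 3 (−0.65 to −0.56, adjusted p = 0.0572 to 0.0816).

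The most abundant hydrolase transcript of cDC1, Ppt1, which removes fatty acids from proteins, was not called. It had 6718, 6401 and 6739 CPM in Xbp1 KO, 5920, 5224 and 5820 CPM in Xbp1-Ire1 KO and 5512, 5732 and 6039 CPM in WT libraries. Xbp1 KO lay highest without overlap, with a log2 fold change of 0.20 ± 0.10 against WT (adjusted p = 0.221). Fuca1, a fucosidase, gave 0.04 ± 0.11 (adjusted p = 0.865), Lipa, which hydrolyses cholesteryl esters, gave 0.00 (adjusted p = 0.995), Ids, which acts on the same sugars as Idua, gave −0.03 (adjusted p = 0.904) and Sgsh, a sulfatase of heparan sulfate, gave 0.03 (adjusted p = 0.933). The sulfatase Arsa gave −0.34 (adjusted p = 0.349), the acid phosphatase Acp2 gave 0.23 (adjusted p = 0.592) and the galactosidase Gla gave 0.23 ± 0.26 (adjusted p = 0.594). Exons of other genes on the opposite strand cover 21.6% of Sgsh, 18.8% of Arsa and 12.6% of Acp2 exon bases.

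**Figure D3:**
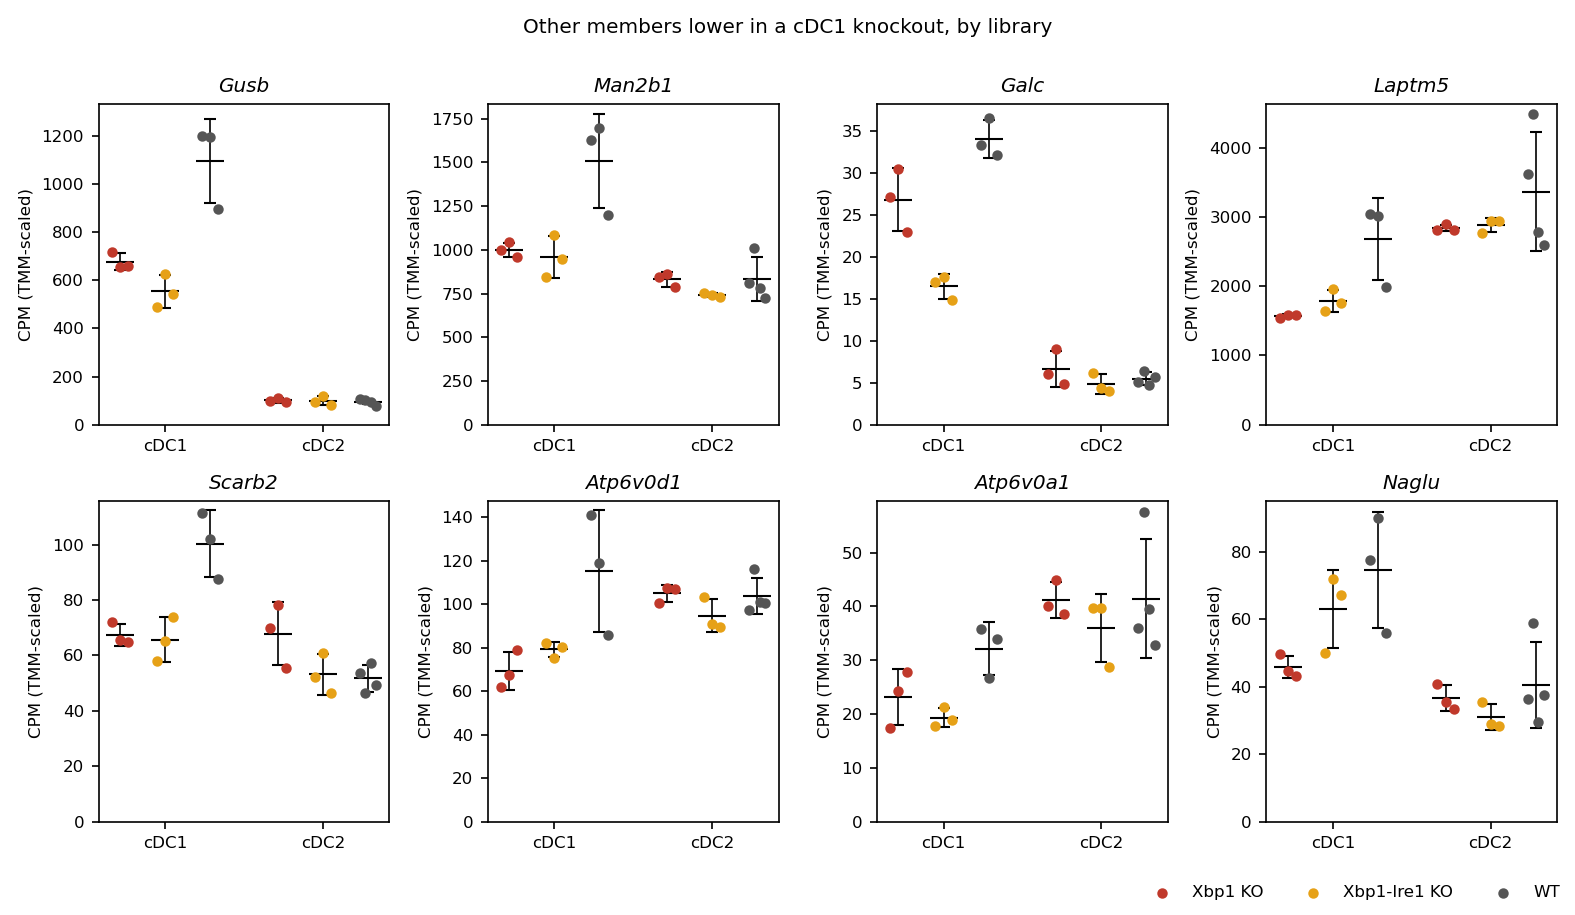
CPM of Gusb, Man2b1, Galc, Laptm5, Scarb2, Atp6v0d1, Atp6v0a1 and Naglu in each cDC1 and cDC2 library by genotype, with the mean and SD of each group. In cDC1 the knockout libraries lie under the WT libraries for Gusb, Man2b1, Laptm5 and Scarb2, and WT replicate 3 is the lowest WT library for those 4 genes.

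The V-ATPase joins a membrane sector (Atp6v0 genes), through which protons pass, to a cytosolic sector (Atp6v1 genes), which hydrolyses ATP. Of its 15 genes, 1 fell in cDC1 Xbp1 KO and another in cDC1 Xbp1-Ire1 KO, both of the membrane sector. Atp6v0d1 had 61.8, 67.2 and 78.7 CPM in Xbp1 KO, 82.2, 75.4 and 80.2 CPM in Xbp1-Ire1 KO and 141, 119 and 85.7 CPM in WT libraries. Both knockouts lay under WT without overlap. Atp6v0d1 fell by 0.73 ± 0.17 on the log2 scale in Xbp1 KO (adjusted p = 0.0153) and gave −0.54 in Xbp1-Ire1 KO (adjusted p = 0.0682). Against WT replicate 3 alone the Xbp1 KO value was −0.29 (adjusted p = 0.439). It was also not called without WT replicates 1 or 2 or Xbp1 KO replicates 1 or 2 (−0.70 to −0.56, adjusted p = 0.0543 to 0.093), nor without replicate 2 of both knockouts (−0.70, adjusted p = 0.097).

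Atp6v0a1 had 17.4, 24.4 and 27.7 CPM in cDC1 Xbp1 KO, 17.8, 21.3 and 18.8 CPM in Xbp1-Ire1 KO and 35.9, 26.6 and 34.0 CPM in WT libraries. Xbp1-Ire1 KO lay under WT without overlap, and the highest Xbp1 KO library was above the lowest WT library. Atp6v0a1 fell by 0.73 ± 0.20 on the log2 scale in Xbp1-Ire1 KO against WT (adjusted p = 0.038), and it gave −0.81 against WT replicate 3 alone (adjusted p = 0.105). It was also not called without WT replicate 1 or any 1 of the Xbp1-Ire1 KO libraries (−0.82 to −0.66, adjusted p = 0.0576 to 0.145). Nor was it called without replicate 2 of both knockouts (−0.80, adjusted p = 0.0894). Atp6v0a1 lies 5.33 Mb from Ern1 on the same chromosome, with Naglu at 5.32, Gaa at 12.8, Sgsh at 12.9 and Ctns at 33.2 Mb. The part of closeness to Ern1 in the values of these genes was not tested.

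No other V-ATPase gene was called in the 3 cDC1 comparisons. At an unadjusted p under 0.05, 3 were lower in Xbp1 KO and 4 in Xbp1-Ire1 KO against WT, the called genes included. That threshold was met by 28.3% and 22.5% of all tested genes in the same order, in either direction. Atp6v0e, a small subunit of the membrane sector, gave −0.43 ± 0.14 in each knockout against WT, with adjusted p of 0.0622 in Xbp1 KO and 0.0762 in Xbp1-Ire1 KO. The catalytic sector subunit Atp6v1b2 gave −0.13 in Xbp1 KO (adjusted p = 0.453), and the accessory genes Atp6ap1 and Atp6ap2 gave −0.26 (adjusted p = 0.225) and −0.04 (adjusted p = 0.888). Atp6v0c, whose subunit forms the rotating ring, was counted at only 0.157 to 2.01 CPM in cDC1. It has near-identical pseudogene copies, so its count is uncertain and its fold changes are not read.

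The 3 regulators were not called in any genotype comparison over all libraries. Tfeb had 49.7, 42.1 and 49.9 CPM in cDC1 Xbp1 KO, 42.7, 51.5 and 49.2 CPM in Xbp1-Ire1 KO and 62.8, 65.9 and 55.6 CPM in WT libraries. All knockout libraries lay under all WT libraries, with log2 fold changes of −0.38 ± 0.14 in Xbp1 KO (adjusted p = 0.0969) and −0.36 ± 0.14 in Xbp1-Ire1 KO (adjusted p = 0.139). Tfe3 had 66.7, 68.3 and 65.8 CPM in Xbp1 KO, 48.8, 56.0 and 61.6 CPM in Xbp1-Ire1 KO and 81.4, 76.1 and 69.98 CPM in WT libraries. The genotypes did not overlap, and the log2 fold change was −0.18 ± 0.13 in Xbp1 KO (adjusted p = 0.397) and −0.45 ± 0.13 in Xbp1-Ire1 KO (adjusted p = 0.0517) against WT. Mitf was low and overlapped among genotypes, with 2.94, 2.80 and 3.14 CPM in Xbp1 KO, 2.39, 2.75 and 2.46 CPM in Xbp1-Ire1 KO and 3.99, 1.81 and 1.65 CPM in WT libraries. The call of the other regulators turned on 1 library. Without WT replicate 3, Tfeb fell by 0.43 in each knockout (adjusted p = 0.0347 in Xbp1 KO and 0.0463 in Xbp1-Ire1 KO) and Tfe3 by 0.51 in Xbp1-Ire1 KO (adjusted p = 0.0173). The log2 fold change of Mitf was 0.25 ± 0.47 in Xbp1 KO against WT (adjusted p = 0.768).

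The classes were also averaged in each library. The mean log2 CPM of the 18 hydrolases, set against the WT mean, was −0.52, −0.48 and −0.64 in cDC1 Xbp1 KO, −0.37, −0.15 and −0.30 in Xbp1-Ire1 KO and 0.04, 0.06 and −0.10 in WT libraries. For the 9 membrane proteins it was −0.68, −0.70 and −0.80 in Xbp1 KO, −0.14, −0.24 and −0.13 in Xbp1-Ire1 KO and 0.14, −0.02 and −0.12 in WT libraries. For both classes every Xbp1 KO library lay under every library of the other genotypes. For the 15 V-ATPase genes, with Atp6v0c and its uncertain count among them, it was −0.25, −0.16 and −0.07 in Xbp1 KO. It was −0.03, −0.20 and −0.10 in Xbp1-Ire1 KO and 0.17, −0.02 and −0.15 in WT libraries, and the genotypes overlapped. Counts of the 45 genes made up 1.61%, 1.58% and 1.53% of all counts in Xbp1 KO, 1.66%, 1.70% and 1.66% in Xbp1-Ire1 KO and 1.87%, 1.92% and 1.74% in WT cDC1 libraries.

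**Figure D4:**
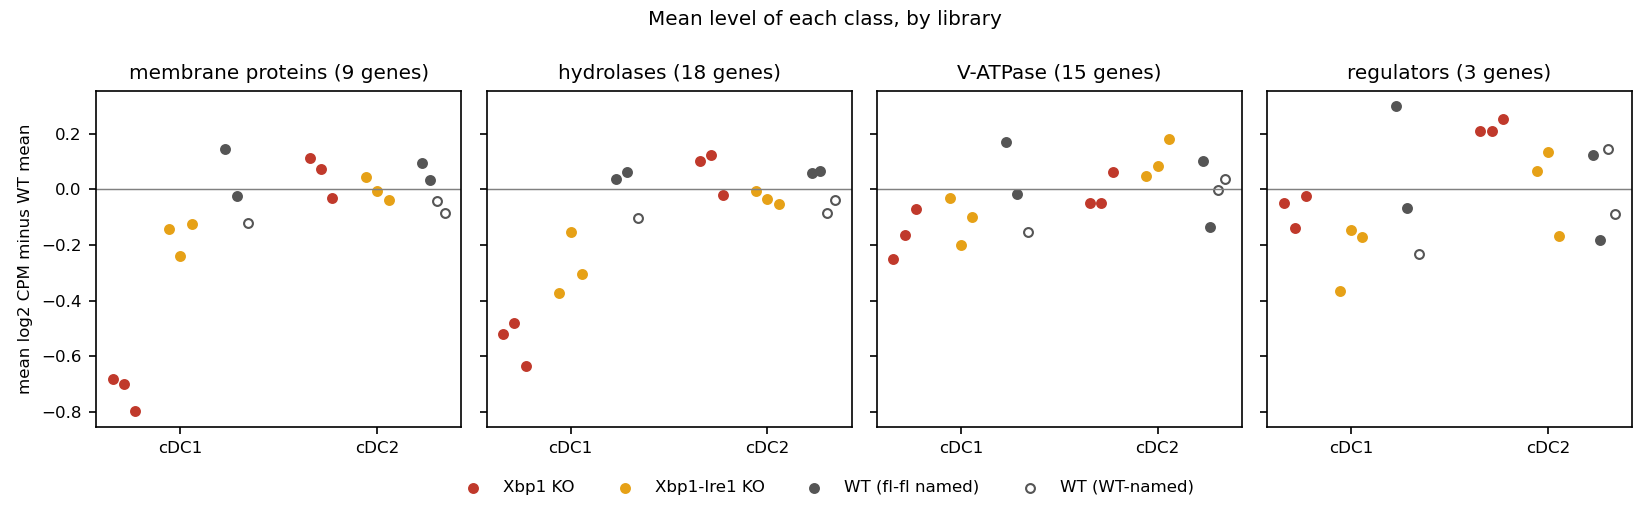
Mean log2 CPM of the genes of each class in each library, minus the mean of the WT libraries of the same cell type. Open circles are WT libraries without fl-fl in their names. In cDC1 the Xbp1 KO libraries lie at −0.80 to −0.68 for the membrane proteins and at −0.64 to −0.48 for the hydrolases, under the other genotypes.

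Promoter sequences bear on the regulators, which are known to bind DNA at words containing CACGTG. RefSeq promoters on GRCm38.p6, from 250 bases before to 50 bases after the start of a gene, were at hand for 40 of the 45 genes. CACGTG, which reads the same on both strands, stood in 11 of the 40, against 8.09% of 27025 genes. The longer TCACGTGA, which contains it, stood in 5 of the 40 and in 1.12% of genes. Of the genes that fell in cDC1 Xbp1 KO, 4 of 13 with a promoter held CACGTG, and of the others 7 of 27 did. Of the 6 that fell in cDC1 Xbp1-Ire1 KO, 0 did. A match is a description, not a site or a cause, and no match says only that these letters are not in this window.

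The windows of the 4 lowered genes are shown with those of the other genes that hold the longer word, 5′ to 3′ on the strand of the gene, with the word in capitals (TCACGTGA where it is present, otherwise CACGTG). The Lamp1 window, just before the start of the gene, was widened to hold the core all 4 times. Every other window is 30 bases around the first match of its word. Repeats outside these windows are not shown: the Gla promoter holds TCACGTGA 2 times, and those of Mcoln1 and Atp6v0b hold CACGTG 2 times.
Lamp1 (chr8:13159092-13159159, plus strand): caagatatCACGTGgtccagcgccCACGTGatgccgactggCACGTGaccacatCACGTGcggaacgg
Naglu (chr11:101070009-101070038, plus strand): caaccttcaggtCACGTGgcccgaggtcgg
Gaa (chr11:119267811-119267840, plus strand): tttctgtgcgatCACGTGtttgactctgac
Atp6v0d1 (chr8:105566050-105566079, minus strand): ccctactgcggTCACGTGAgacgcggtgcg
Mcoln1 (chr8:3500462-3500491, plus strand): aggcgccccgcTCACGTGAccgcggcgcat
Gla (chrX:134601215-134601244, minus strand): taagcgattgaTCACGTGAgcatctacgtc
Atp6v1a (chr16:44139373-44139402, minus strand): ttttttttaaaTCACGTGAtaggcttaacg
Atp6v0e (chr17:26676387-26676416, plus strand): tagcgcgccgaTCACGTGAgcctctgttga
Lamp1, Naglu, Gaa and Atp6v0d1 were called lower in cDC1 Xbp1 KO, and Mcoln1, Gla, Atp6v1a and Atp6v0e were not called there.

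The RNase of IRE1 is known to cut Xbp1 mRNA in 7-base hairpin loops of the form CNGCAGN. Coding sequences of GENCODE M21 on GRCm38 were searched on the mRNA strand for CNGCAGN between at least 4 paired bases on each side. G with U counted as a pair. Such a loop was found in 7 of the 45 genes, against 7.43% of 21901 genes. It was found in 4 of the 14 genes that fell in cDC1 Xbp1 KO (Tpp1, Naaa, Idua and Man2b1) and in 3 of the other 31 (Ids, Atp6v1a and Tfeb). Hgsnat and Lamp1, with the largest falls, held none in their coding sequence. The word CTGCAG alone stood in 32 of 45 genes, or 71.1%, against 65.8% of all genes. These shares are not adjusted for coding length, with a median of 1389 bases in the 45 genes and 1173 bases in all genes. Per kilobase of coding sequence, CTGCAG stood 1.01 times in the 45 genes and 1.07 times in all genes. The loop stood 0.11 and 0.0498 times per kilobase. In the 14 lowered genes, with a median of 1807.5 bases, CTGCAG stood 0.903 times and the loop 0.157 times per kilobase. The loops of the 4 lowered genes are shown under those of Xbp1, with the loop in capitals and T for U.
Xbp1, first loop (chr11:5524265-5524293, plus strand): gtctgctgagtCCGCAGCactcagactat
Xbp1, second loop (chr11:5524291-5524319, plus strand): tatgtgcacctCTGCAGCaggtgcaggcc
Tpp1 (chr7:105746952-105746980, minus strand, exon 12): ccaggctctatCAGCAGCatgggacagga
Naaa (chr5:92276976-92277004, minus strand, exon 2): accgacgagatCCGCAGCatctgtgactc
Idua (chr5:108681468-108681496, plus strand, exon 10): ccctgaaggctCCGCAGCggcctggagta
Man2b1 (chr8:85091587-85091615, plus strand, exon 11): gaggcagctggCAGCAGGctggggaccct
Tpp1, Naaa and Idua were also called higher in Xbp1-Ire1 KO than in Xbp1 KO, while Man2b1 was lower in both knockouts than in WT. These matches describe letters and pairing only, and cutting of these mRNAs was not measured.

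In cDC2, 0 of the 45 genes were called in Xbp1 KO against WT, in Xbp1-Ire1 KO against WT or between the knockouts, by edgeR, by DESeq2 or by limma on the deposited log2 values. Few genes were called at all there: 0.103%, 0.0258% and 0.0343% of the 11646 tested. At an unadjusted p under 0.05 there were 2, 1 and 2 members in the same order, beside 9.68%, 7.53% and 8.24% of all tested genes. The median log2 fold change over the 45 genes was −0.01, 0.00 and −0.03. Lamp1 had 486, 434.5 and 394 CPM in cDC2 Xbp1 KO, 485, 482.5 and 458 CPM in Xbp1-Ire1 KO and 475, 456, 424 and 483.5 CPM in WT libraries. Hgsnat had 67.1, 66.4 and 54.2 CPM in Xbp1 KO, 70.6, 57.3 and 58.0 CPM in Xbp1-Ire1 KO and 77.3, 74.6, 64.8 and 65.9 CPM in WT libraries. For both genes the genotypes overlapped in cDC2. The same held for Tpp1, with 99.005, 88.9 and 85.6 CPM in Xbp1 KO, 89.3, 73.1 and 105.6 CPM in Xbp1-Ire1 KO and 94.5, 103.9, 75.2 and 83.7 CPM in WT libraries.

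The cDC2 WT libraries differed by name for some of the 45 genes. Over all genes, WT libraries differed more between names than within them, by the chi-square of their counts per degree of freedom. This was 52.3 to 69.0 between names and 15.3 and 24.8 within them in cDC2. In cDC1 it was 71.7 and 75.0 between names and 13.6 within fl-fl. The cause of this split was not tested. Gla had 38.2, 51.1 and 38.6 CPM in cDC2 Xbp1 KO, 30.02, 28.9 and 24.1 CPM in Xbp1-Ire1 KO, 9.95 and 4.13 CPM in the fl-fl WT libraries and 44.97 and 40.3 CPM in the libraries named WT alone. The fl-fl WT libraries were lowest and the Xbp1-Ire1 KO libraries next, and the Xbp1 KO libraries overlapped those named WT alone. Naaa had 68.2, 68.0 and 61.1 CPM in Xbp1 KO, 90.2, 72.6 and 66.5 CPM in Xbp1-Ire1 KO, 108.5 and 98.4 CPM in the fl-fl and 68.8 and 54.6 CPM in the other WT libraries. Laptm5 had 2816, 2890 and 2805 CPM in Xbp1 KO, 2763, 2936 and 2945 CPM in Xbp1-Ire1 KO, 3615 and 4478 CPM in the fl-fl and 2776 and 2591 CPM in the other WT libraries. Against the fl-fl libraries alone, 5 members were called in Xbp1 KO where 6.21% of 11915 tested genes were: Gla was 2.61 higher (adjusted p = 0.000316) and Mcoln1 0.86 higher (adjusted p = 0.0167), while Laptm5 fell by 0.51 (adjusted p = 0.0155), Naaa by 0.65 (adjusted p = 0.0261) and Arsb by 0.60 (adjusted p = 0.0459), all log2. In Xbp1-Ire1 KO 2 were called where 4.07% of tested genes were: Gla was 1.98 higher (adjusted p = 0.00323) and Laptm5 fell by 0.49 (adjusted p = 0.0262). The summed level of 23 immediate early genes, which are known to respond quickly to stimulation and handling, was 18218 and 20850 CPM in the fl-fl and 31089 and 30576 CPM in the other cDC2 WT libraries, and its part in these values was not tested.

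Whether an effect differed between the cell types was tested as an interaction in the fit of all 19 libraries over 12185 genes. For Xbp1 KO against WT, 9 of the 45 genes had a lower log2 fold change in cDC1 than in cDC2, while 2.17% of all tested genes were called, 1.84% in this direction. The differences, cDC1 minus cDC2, were −2.64 ± 0.20 for Hgsnat (adjusted p = 1.22e-07), −2.51 ± 0.25 for Lamp1 (adjusted p = 2.73e-06), −2.04 ± 0.25 for Tpp1 (adjusted p = 2.97e-05) and −1.60 ± 0.27 for Idua (adjusted p = 0.00105). They were −1.35 for Naaa, −0.98 for Gaa, −0.97 for Scarb2, −0.96 for Manba and −0.79 for Gusb, with adjusted p of 0.00422 to 0.0435. The value of Gusb was not called without any 1 of 11 of the 13 libraries compared (−0.84 to −0.70, adjusted p = 0.0524 to 0.163). With the libraries named WT alone as WT, neither Gusb nor Scarb2 was called here. In cDC2, Scarb2 had a mean of 67.9 CPM in Xbp1 KO and 51.7 CPM in WT, with overlapping libraries. The Scarb2 difference thus holds a fall in cDC1 and a higher mean in cDC2 Xbp1 KO. For Xbp1-Ire1 KO against WT, 1 gene differed, Gusb, by −1.06 ± 0.20 (adjusted p = 0.00556), beside 2.23% of all tested genes called and 1.48% lower. For Xbp1-Ire1 KO against Xbp1 KO, 5 genes had a higher log2 fold change in cDC1: Hgsnat by 3.27, Lamp1 by 2.07, Tpp1 by 1.91, Idua by 1.54 and Naaa by 1.40, with adjusted p of 6.03e-09 to 0.0046, beside 2.14% of all tested genes called and 1.82% higher.

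Between the cell types in WT, 30 of the 45 genes were called, 18 higher and 12 lower in cDC1 than in cDC2, while 40.8% of all tested genes were called. Values of this comparison were scaled over all 19 libraries. Among the hydrolases 9 were higher and 5 lower in cDC1, among the V-ATPase genes 8 and 1, among the membrane proteins 1 and 4, and among the regulators 0 and 2. Ppt1 had 5665, 5925 and 6228 CPM in WT cDC1, against 294.5, 215.4, 209.3 and 207.8 CPM in WT cDC2, and Naaa had 2935, 2541 and 2051 CPM in WT cDC1, against 103.9, 94.1, 66.7 and 53.3 CPM in WT cDC2. The cell types lay far apart for both genes, with log2 fold changes of 4.68 ± 0.12 (adjusted p = 7.71e-16) for Ppt1 and 4.98 ± 0.20 (adjusted p = 2.12e-13) for Naaa. The log2 fold change was 3.62 ± 0.15 for Gusb (adjusted p = 2.81e-13), 2.73 ± 0.21 for Galc (adjusted p = 1.94e-09), 2.52 ± 0.11 for Fuca1 (adjusted p = 3.07e-13) and 2.18 ± 0.17 for Arsb (adjusted p = 3.09e-09).

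Tfeb ran the other way, with 64.5, 68.1 and 57.3 CPM in WT cDC1, against 186.9, 238.8, 182 and 192.8 CPM in WT cDC2. The cell types did not overlap, and Tfeb fell by 1.66 ± 0.12 on the log2 scale in cDC1 (adjusted p = 1.06e-09). Ids gave −1.24 ± 0.11 (adjusted p = 1.98e-08), Acp2 gave −1.40 ± 0.24 (adjusted p = 0.000101), and Tpp1, Hgsnat and Lamp1, all lowered in cDC1 Xbp1 KO, gave −1.09, −1.08 and −0.53 in WT cDC1 against WT cDC2. Gla gave −1.65 ± 0.51 (adjusted p = 0.0134), but 0.06 with the fl-fl libraries alone (adjusted p = 0.919), and it was not called without cDC1 WT replicate 2 or cDC2 WT replicates 3 or 4 (−1.54 to −1.19, adjusted p = 0.0508 to 0.0633). Lamp1 was not called without cDC1 WT replicate 2 (−0.34, adjusted p = 0.137), and Tfe3, at −0.38, and Atp6v1d, Atp6v1e1, Atp6v1f and Atp6v1h also lost their calls without 1 library, with adjusted p up to 0.208. Mitf gave −0.71 ± 0.39 (adjusted p = 0.152) and was called without cDC1 WT replicate 1 (−1.22, adjusted p = 0.0312) or cDC2 WT replicate 2 (−0.97, adjusted p = 0.0373). The V-ATPase genes higher in cDC1 were led by Atp6v0e at 1.07 ± 0.12 (adjusted p = 4.39e-07), and the other 7 lay at 0.30 to 0.53.

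Per kilobase of exon, which allows genes to be compared, mean WT levels in cDC1 were highest for Ppt1 at 1617 CPM per kb, then Laptm5 at 728.5, Naaa at 674, Fuca1 at 255, Gusb at 248 and Man2b1 at 194 CPM per kb. In WT cDC2 the order began with Laptm5 at 855 CPM per kb, Lamp1 at 166, Atp6v1g1 at 137, Atp6v1f at 124 and Laptm4a at 121 CPM per kb, and Ppt1 lay at 63.1. Lamp1 had 115, Hgsnat 9.77 and Tpp1 7.86 CPM per kb in WT cDC1. In cDC1 Xbp1 KO, Hgsnat ranked 43 of the 45 genes per kb. Ppt1 made up 42.2% to 43.6% of the counts of the 45 genes in cDC1 Xbp1 KO, 32.3% to 35.8% in Xbp1-Ire1 KO and 27.1% to 34.5% in WT libraries.

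**Figure D5:**
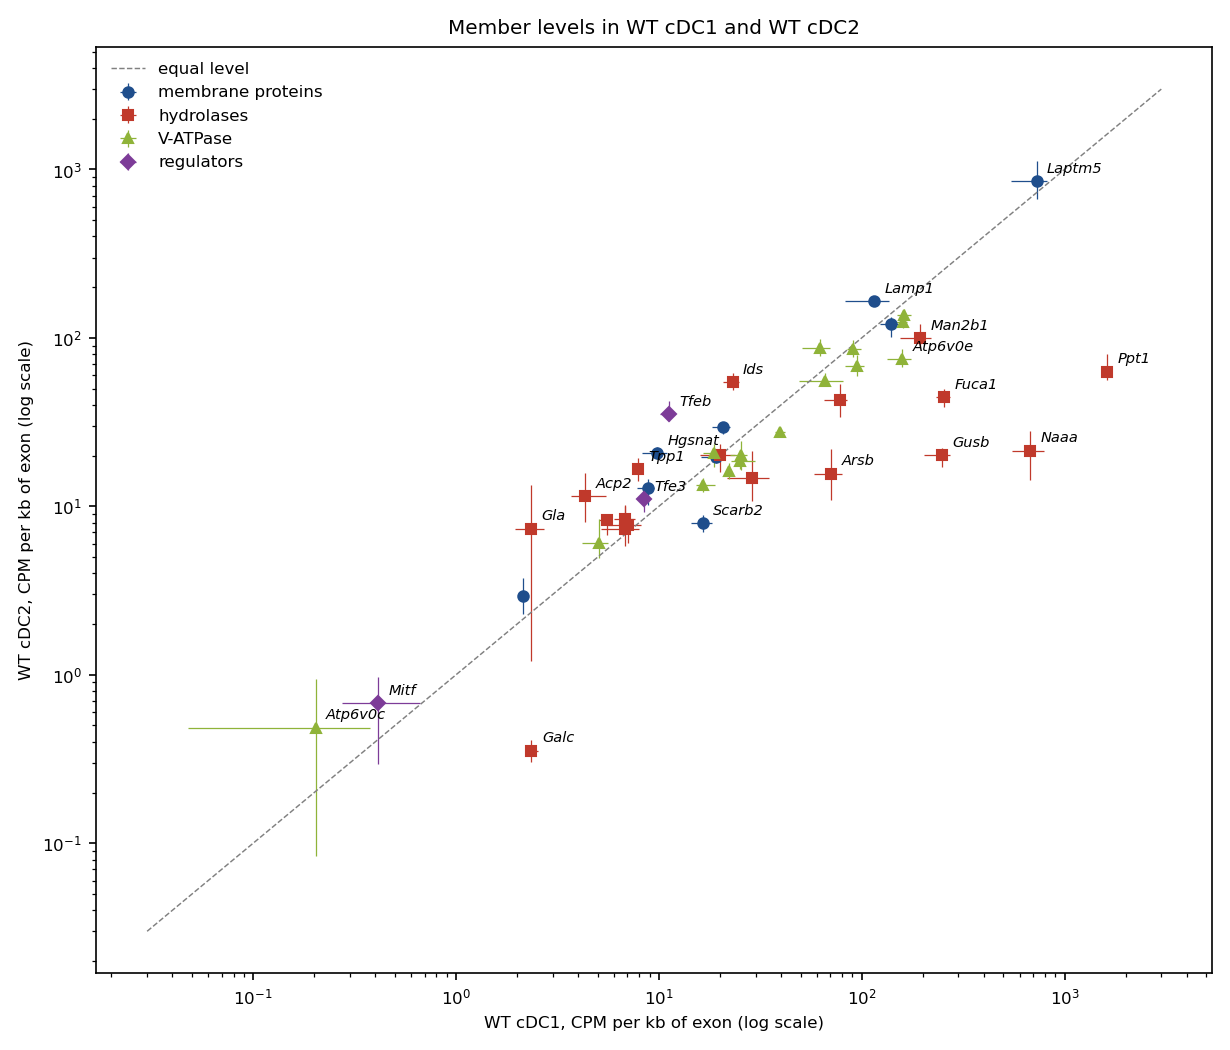
Mean level per kilobase of the 45 genes in WT cDC1 against WT cDC2 (CPM per kb, both axes logarithmic), by class, with bars for the range over libraries. Ppt1, Naaa and Gusb lie far on the cDC1 side of the diagonal and Tfeb, at 11.2 in cDC1 and 35.3 in cDC2, on the cDC2 side.

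Other genes of the lysosome, listed apart from the 45 and also with earlier results known, were counted in the same fits. In cDC1 Xbp1 KO against WT, 6 of 29 further hydrolases or their cofactors fell, led by Plbd2, a phospholipase-like protein, with 17.7, 15.9 and 18.1 CPM in Xbp1 KO, 67.5, 70.3 and 66.3 CPM in Xbp1-Ire1 KO and 100, 93.0 and 78.2 CPM in WT libraries. Plbd2 formed 3 steps without overlap, fell by 2.39 ± 0.14 on the log2 scale in Xbp1 KO against WT (adjusted p = 8.3e-07) and was 1.98 higher in Xbp1-Ire1 KO than in Xbp1 KO (adjusted p = 1.34e-06). Hyal2, a hyaluronidase, fell by 1.89 (adjusted p = 0.00434) and Npc2, a cholesterol carrier, by 0.67 (adjusted p = 0.00499). Of 23 further membrane proteins, 3 fell and 1 rose, and of 10 further V-ATPase genes 1 fell. All tested genes gave 11.2% called in that comparison, 6.91% lower and 4.28% higher. Of 13 genes that control TFEB none was called by edgeR. At an unadjusted p under 0.05, 2 of these were higher and 4 lower, beside 28.3% of all tested genes in either direction. Of 9 genes that tag or carry hydrolases by mannose 6-phosphate, 3 fell: Gnptg, a subunit of the tagging enzyme, by 1.52 (adjusted p = 0.0017), Igf2r, the receptor, by 1.46 (adjusted p = 0.00206) and the adaptor Gga2 by 0.78. In Xbp1-Ire1 KO against Xbp1 KO, Gnptg was 1.82 higher (adjusted p = 0.000358) and Igf2r 1.54 higher (adjusted p = 0.00134).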

How the data were processed

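The authors deposited 1 table of whole-number counts for each cell type, with gene symbols in rows and, per the file headers, the 19 libraries in columns. Their deposited normalized tables hold log2 values, equal to log2 CPM after adding 0.5 to every count, shifted by an offset that is the same for all genes of a library. According to the submitters' processing notes, tools were limma 3.42.2, TopHat2 2.1.0 with mm10, Trimmomatic 0.35, SAMtools 0.1.19 and FastQC 0.11.4. For the counting program, its annotation and its strand setting, the sources used here give nothing. Cells were sorted by flow cytometry, per the labels' protocols.

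Tests on the counts used edgeR 4.0.16 (R 4.3.3): filterByExpr with a minimum count of 10 and minimum total of 15, TMM scaling, the 3 genotypes of a cell type in one model, the quasi-likelihood F test, and Benjamini-Hochberg adjustment across every tested gene. Interactions and the WT cell types came from a model of all 19 libraries. SE values are approximate, taken as the size of the log2 fold change over the root of F. CPM values have TMM scaling inside each cell type, and marker sums, Xcr1 and Sirpa have none. Within a group, no 2 libraries agreed within sampling noise.

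The 45 genes and all other lists were chosen with earlier results of these data known. Any of the 45 could be named. Values per library were given for members called in a genotype comparison, up to 5 per class and comparison by size, and for the regulators. Lamp2, Ppt1 and the cDC2 values were added as comparisons. Up to 4 called genes were named from each other lysosomal list and comparison. A result withheld for evaluation is not reported here. Alternatives were DESeq2 1.42.0 as test and as scaling, no filter and a stricter one on counts, limma 3.58.1 on the deposited log2 values, a replicate block, fits limited to the groups compared, fl-fl or WT-named libraries as the WT group, each library left out and, chosen after seeing the data, the libraries high in macrophage markers left out. Where 1 library remained in a group, its spread was taken to equal that of the others. The fits were also run on simulated counts, drawn without a split by WT name and without markers of other cells. That run does not bear on either. Gene coordinates are GRCm38 from GENCODE M21. Plots used matplotlib 3.10.9 (Python 3.11.15).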

Additional observations from a re-analysis of the deposited data

Results flagged for a closer look

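In cDC2 WT, the group of 4 libraries, 3 of the 45 genes had 1 library far from the others, with a gap above Dixon's critical value at the 95% level. Chance flags about 1 in 20 groups, and 45 were tested. Manba had 48.8 CPM in replicate 3, against 62.8 to 65.2 CPM in the other WT libraries. Ppt1 had 308 CPM in replicate 1, against 213 to 225 CPM in the others. Tfeb had 250 CPM in replicate 2, against 188 to 197 CPM in the others.

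The effect of a genotype differed between cDC1 and cDC2 for 9 genes in Xbp1 KO against WT, by interaction terms of edgeR (cDC1 minus cDC2, log2, each past an adjusted p of 0.05). The differences were −2.64 for Hgsnat, −2.51 for Lamp1, −2.04 for Tpp1, −1.60 for Idua, −1.35 for Naaa, −0.98 for Gaa, −0.97 for Scarb2, −0.96 for Manba and −0.79 for Gusb. In Xbp1-Ire1 KO against WT the difference was −1.06 for Gusb. In Xbp1-Ire1 KO against Xbp1 KO the differences were 3.27 for Hgsnat, 2.07 for Lamp1, 1.91 for Tpp1, 1.54 for Idua and 1.40 for Naaa.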

How the results depend on the processing

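In cDC1 Xbp1 KO against WT, 14 members were called, 7 against the library named WT alone and 10 to 17 with 1 library left out. In cDC1 Xbp1-Ire1 KO against WT, 6 were called, 10 by DESeq2, 14 against the fl-fl libraries, 2 against the library named WT alone, 3 without the macrophage-marker-high libraries and 2 to 14 with 1 library left out: 14 without WT replicate 3, and 2 without WT replicate 1 or Xbp1-Ire1 KO replicate 1. Between the knockouts, 8 were called, 5 without the macrophage-marker-high libraries and 6 to 9 with 1 library left out. In cDC2, against the fl-fl libraries, 5 were called in Xbp1 KO and 2 in Xbp1-Ire1 KO, where 6.21% and 4.07% of all tested genes were. Against all WT libraries 0 were called, where 0.103% and 0.0258% of all tested genes were. For the other alternatives the share over all tested genes is not given. Their counts are thus not read as results about the members. The interaction for Xbp1-Ire1 KO against WT gave 1 call, 2 with the replicate block, 0 against the libraries named WT alone and 1 to 2 with 1 library left out; the others gave 8 to 11 and 5 to 5. WT cDC1 against WT cDC2 gave 30 calls, 20 with the libraries named WT alone and 26 to 29 with 1 left out. The replicate block gave 14, 5 and 8 calls in the cDC1 comparisons. The labels do not say that a number pairs libraries, and their deviations from the group means gave a mixed pattern: of pairs with the same number, 3 of 9 in each cell type correlated above 0.1, up to 0.234 in cDC1 and 0.228 in cDC2, against 3 of 18 and 2 of 24 pairs with different numbers. The block ended the calls of Atp6v0a1 in Xbp1-Ire1 KO against WT (−0.74, adjusted p = 0.0514) and of Gla in WT cDC1 against WT cDC2 (−1.16, adjusted p = 0.095). The 73 single results called in the main fits gave 1182 values under the alternatives, and calls gained there are not counted. Of the 1182, 1064 kept their direction and side of the threshold. Just 1 reversed, Gla in WT cDC1 against WT cDC2, at 0.057 with the fl-fl libraries. The rest changed side. The cause of these changes was not tested. Hgsnat, Lamp1, Tpp1, Naaa, Idua, Gaa and Manba in Xbp1 KO against WT, and Galc and Gusb in Xbp1-Ire1 KO against WT, were called under all alternatives run.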
